A study of Mus musculus with 24 samples.

Results

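The Hoxa genes described here were Hoxa2, Hoxa3, Hoxa4, Hoxa5, Hoxa6, Hoxa7, Hoxa9, Hoxa10 and Hoxa11, 9 of the 55487 genes in a count table from 24 mouse RNA-seq libraries. They were chosen by name, as the rows of the table that carry these symbols. All 9 lie on the minus strand of chromosome 6, in chromosomal order within 83.4 kb (GRCm38, chr6:52162417-52245810, GENCODE M21). The libraries came from LSK cells, the lineage-negative, Sca-1-positive, KIT-positive compartment that holds blood stem and early progenitor cells. The labels name LSK, whereas the design text describes a sort on KIT without naming Sca-1. The 6 groups had 4 biological replicates each, per the design text. The edgeR p-values used a spread between replicates that was estimated over all 24 libraries, not within the compared groups alone.

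The human MLL::ENL fusion gene (ME) was carried in a Tet-off mouse model, and the labels give for each ME group the time at which it was induced. At postnatal day 0 (P0), liver LSK cells came from wild-type mice (P0 WT) and from ME mice whose fusion gene had been on since E10.5 of embryonic life (P0 ME). At postnatal day 28 (P28), bone marrow LSK cells came from wild-type mice (P28 WT), from ME mice induced at E10.5 (P28 E10.5 ME) and from ME mice induced at birth (P28 P0 ME). A further P28 marrow group, also ME induced at E10.5, has the added words RLT Vav Txp in its labels, which do not expand them (P28 RLT Vav Txp). The cell type that drives the Tet-off transactivator, the strain and the sex are not in the labels, and the human transgene is not a row of the mouse table. Age and tissue cannot be told apart, since liver was sampled only at P0 and marrow only at P28.

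Hoxa genes encode homeodomain transcription factors that pattern the body axis, and their order along the chromosome follows the order of their expression along it. In blood, the genes toward the Hoxa9 and Hoxa10 end are active in stem and progenitor cells and are switched off as cells mature. MLL (the gene Kmt2a in the mouse) keeps Hox genes active, and its fusion with ENL (Mllt1) recruits elongation factors and the histone methyltransferase Dot1l. Hoxa9 and its cofactor Meis1 are textbook targets of MLL fusions in leukaemia.

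Library totals ran from 31233688 to 89774511 counts, and levels below are CPM, read counts scaled to library size, with TMM normalisation. The LSK genes Kit and Ly6a (Sca-1) were detected in every library. Group means were 688 to 1066 CPM for Kit and 93.8 to 296 CPM for Ly6a. Kit varied widely within the P0 groups. P0 WT libraries 1 to 4 held 72115, 47364, 79729 and 10148 Kit counts, of totals of 48577193, 80634729, 89774511 and 73050079. P0 ME libraries 1 to 4 held 87928, 26840, 67424 and 20228, of 59757533, 63088149, 57217712 and 42968051. P0 WT 4, the lowest of its group in Kit, was the highest in Ly6a, at 13647 counts. The part of Kit level in the Hoxa results was not tested. Summed CPM of 7 neutrophil-lineage genes was 878 in the P0 WT library numbered 1 and 763 in the P0 ME library numbered 1, against 9290 to 14400 and 16700 to 30000 in the other P0 libraries. The same sum was 645 to 1730 in P28 WT, P28 E10.5 ME and P28 P0 ME and 1780 to 5970 in P28 RLT Vav Txp. Summed CPM of 8 macrophage genes was 17 to 55.7 in those 3 P28 groups, 537 to 2350 in P28 RLT Vav Txp and 77.1 to 1490 at P0, and 1 of the 8, Vsig4, had 0 counts in every library of those 3 groups. In bulk RNA, fewer cells of a type and less RNA per cell cannot be told apart.

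The MLL CXXC domain binds unmethylated CpG, so the promoter sequences of the Hoxa genes that were higher in P0 ME are shown with each CpG in capitals. RefSeq (GRCm38.p6) gave promoters for 8 of the 9 genes, all but Hoxa4, with both starts for Hoxa10. Each sequence is the 250 bases before an annotated start, read 5′ to 3′ on the minus strand.
Hoxa2, chr6:52164832-52165081: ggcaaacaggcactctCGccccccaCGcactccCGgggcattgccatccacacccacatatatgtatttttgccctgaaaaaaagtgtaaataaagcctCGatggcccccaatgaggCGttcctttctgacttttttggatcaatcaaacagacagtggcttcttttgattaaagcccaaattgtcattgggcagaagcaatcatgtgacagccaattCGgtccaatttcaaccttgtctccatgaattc
Hoxa5, chr6:52204588-52204837: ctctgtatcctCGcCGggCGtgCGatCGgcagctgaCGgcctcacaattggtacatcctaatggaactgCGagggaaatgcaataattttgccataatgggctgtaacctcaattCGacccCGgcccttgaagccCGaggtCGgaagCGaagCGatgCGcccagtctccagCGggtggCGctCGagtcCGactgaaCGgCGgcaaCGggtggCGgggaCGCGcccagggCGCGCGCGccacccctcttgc
Hoxa7, chr6:52218574-52218823: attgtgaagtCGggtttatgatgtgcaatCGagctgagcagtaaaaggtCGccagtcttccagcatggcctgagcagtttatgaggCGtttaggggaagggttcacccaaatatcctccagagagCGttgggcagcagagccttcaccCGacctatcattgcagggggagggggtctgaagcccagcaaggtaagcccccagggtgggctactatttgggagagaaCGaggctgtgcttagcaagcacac
Hoxa9, chr6:52227371-52227620: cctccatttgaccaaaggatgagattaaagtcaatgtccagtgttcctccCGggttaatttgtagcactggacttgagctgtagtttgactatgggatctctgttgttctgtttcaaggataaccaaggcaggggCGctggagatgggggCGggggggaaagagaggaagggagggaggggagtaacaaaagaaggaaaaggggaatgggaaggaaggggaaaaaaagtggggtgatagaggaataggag
Hoxa10, chr6:52234940-52235189: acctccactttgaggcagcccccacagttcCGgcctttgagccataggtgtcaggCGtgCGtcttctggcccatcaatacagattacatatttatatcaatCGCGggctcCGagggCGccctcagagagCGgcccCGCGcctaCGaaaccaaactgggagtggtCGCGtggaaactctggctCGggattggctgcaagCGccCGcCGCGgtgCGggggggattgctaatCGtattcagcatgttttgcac
Hoxa10, chr6:52240855-52241104: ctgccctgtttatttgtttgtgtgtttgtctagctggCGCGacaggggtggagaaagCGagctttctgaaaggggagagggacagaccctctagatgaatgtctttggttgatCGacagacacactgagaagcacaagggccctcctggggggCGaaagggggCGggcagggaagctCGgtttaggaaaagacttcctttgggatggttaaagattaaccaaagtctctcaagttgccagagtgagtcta

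CpG number differed widely among these windows. The Hoxa5 window held 28, a number reached or passed by 7.61% of 32851 RefSeq mouse promoters of the same length, whose median was 6. The Hoxa9 window held 3 and that of Hoxa2 held 6. Of the Hoxa10 starts, the one at the lower coordinate held 20 and the other 7. The Hoxa7 window held 7, and the windows not shown held 24 for Hoxa6, 18 for Hoxa3 and 13 for Hoxa11. For Hoxa7 and Hoxa3, unlike the others, the bases just after the start were not found unbroken in a GENCODE M21 transcript of the gene. On either strand, TGACAG, the core motif of Meis factors, was found in 2 of the 9 windows, those of Hoxa2 and Hoxa3, and in 15.9% of all promoters. TTTATG, a motif of posterior Hox factors, was found in 1 window, that of Hoxa7, and in 10.8% of all promoters. The motifs share no overlap, and these matches describe letters only.

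Most of the Hoxa RNA came from 3 neighbouring genes. Hoxa7, Hoxa9 and Hoxa10 gave 86.4% to 94.2% of the 7868 to 38423 Hoxa counts in each library. Hoxa11, a limb and uterus gene at the far end of the set, had 0 to 10 counts per library and did not pass the filter on low counts. Hoxa4 had 1 to 85 counts per library and Hoxa2, a hindbrain and branchial arch gene, 0 to 340. The other 8 genes passed the filter and were tested. Per kilobase of all annotated exons, mean level in P0 WT was 15.4 CPM for Hoxa10, 13.8 for Hoxa9 and 13.3 for Hoxa7, differences smaller than their SDs of 5.39, 2.42 and 3.49. Per kilobase of the longest CCDS transcript the order changed, to 23.8 for Hoxa9, 19.6 for Hoxa10 and 19.1 for Hoxa7. By either length, Hoxa5 stood at 3.56 CPM per kilobase in P0 WT, against 16.2 in P0 ME. Exons of Hoxa3, Hoxa7, Hoxa4 and Hoxa2 share 27.1%, 20.4%, 16.0% and 15.0% of their bases with other genes, and 35.0% of Hoxa11 exon bases are shared. For Hoxa2 these are shared with a gene on the same strand, as are 8.0% of Hoxa3 exon bases, and the rest lie opposite other genes. How reads in shared bases were counted, and the strand setting, are not given in the sources used here.

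**Figure D1:**
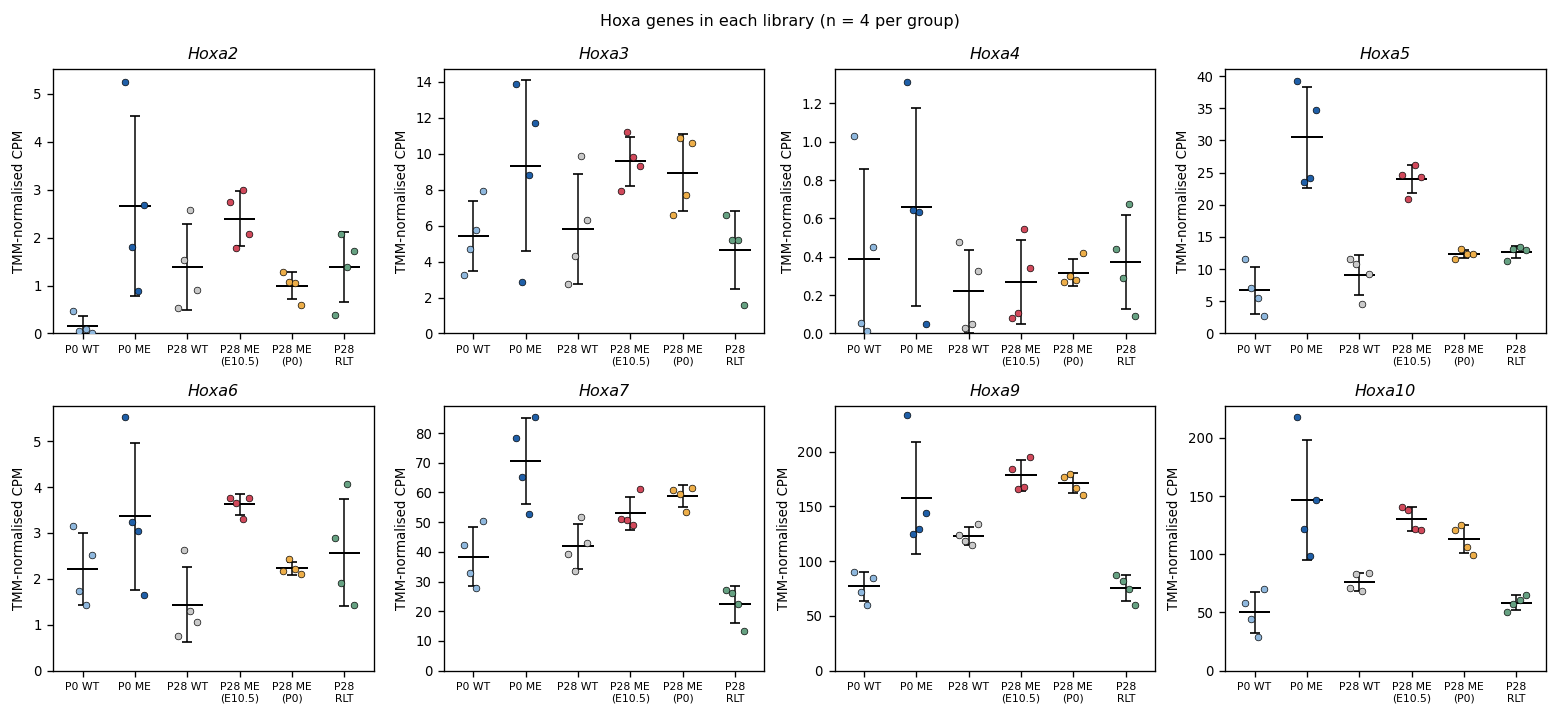
TMM-normalised CPM of the 8 tested Hoxa genes (vertical axes, each its own scale from 0) in the 6 groups (horizontal axis). Points are libraries, 4 per group, horizontal lines are means and bars are SDs. The Hoxa5, Hoxa9 and Hoxa10 values of P0 ME all lie above those of P0 WT, and the Hoxa7 and Hoxa9 values of P28 RLT Vav Txp all lie below those of P28 WT.

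The comparison of P0 ME with P0 WT asked how the Hoxa genes stood at birth after induction in the embryo. Hoxa2, Hoxa5, Hoxa7, Hoxa9 and Hoxa10 were higher in P0 ME, 5 of the 8 genes tested, at an adjusted p under 0.05 in edgeR. Of all 23059 genes tested, 0.642% were called in this comparison and 0.364% were higher, and their median log2 change was -0.01 against 0.96 for the Hoxa genes. The called members span both ends of the cluster, while Hoxa3, Hoxa4 and Hoxa6 between them were not called. The P0 ME and P0 WT libraries did not overlap for any of the 5 called genes, and 3.74% of all tested genes showed such a separation.

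Hoxa9, a regulator of stem cell self-renewal, was at 90.3, 72.2, 60.2 and 85.0 CPM in the 4 P0 WT libraries. It was at 233, 125, 129 and 144 CPM in P0 ME, so the lowest ME library was above the highest WT library. The log2 change was 1.03 (SE 0.17, adjusted p = 0.0026, edgeR). Hoxa10, a neighbour that also acts in progenitor expansion, was at 58.1, 44.2, 29.1 and 69.9 CPM in P0 WT. In P0 ME it was at 218, 122, 98.7 and 147 CPM, again without overlap. Its log2 change was 1.54 (SE 0.22, adjusted p = 0.000474, edgeR). For both genes the highest value belonged to the P0 ME library numbered 1.

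Hoxa5, a gene of lung and axial patterning that is also expressed in blood progenitors, was at 11.5, 7.11, 5.47 and 2.64 CPM in P0 WT. It was at 39.3, 23.6, 24.2 and 34.8 CPM in P0 ME, a log2 change of 2.19 (SE 0.32, adjusted p = 0.000855, edgeR). All 4 ME libraries were at least as high as 23.6 CPM, above the WT maximum of 11.5. Hoxa7, which is adjacent to Hoxa9, was at 42.2, 33.0, 27.8 and 50.5 CPM in P0 WT, while the ME libraries were at 78.4, 65.3, 52.7 and 85.5 CPM. Its log2 change of 0.88 (SE 0.21) was close to the threshold (adjusted p = 0.0497, edgeR). Hoxa2 had 23, 4, 8 and 0 counts in P0 WT, against 340, 107, 52 and 109 in P0 ME, which correspond to mean levels of 0.151 and 2.66 CPM. Its log2 change was 4.16 (SE 0.93, adjusted p = 0.0302, edgeR), an estimate that depends on the low WT counts.

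The 3 genes that were not called overlapped between the groups. Hoxa3, which acts in thymus and parathyroid development, had a log2 difference of 0.78 (SE 0.45, adjusted p = 0.446, edgeR), with 2.89 CPM in 1 ME library and 8.83 to 13.9 CPM in the others. Hoxa6 averaged 2.22 ± 0.775 CPM in wild type against 3.36 ± 1.60 CPM with ME (SD, n = 4). Hoxa4 stayed between 0.0111 and 1.31 CPM in these 8 libraries.

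The calls at P0 rested on a spread estimated over all 6 groups. With only the 2 P0 groups in the fit, 0 of the 5 calls held, at adjusted p of 0.931 for Hoxa2, 0.297 for Hoxa5, 0.726 for Hoxa7, 0.524 for Hoxa9 and 0.325 for Hoxa10 (edgeR), and 0.0259% of all genes were called. The neutrophil-lineage sum, given above, was low in both P0 libraries numbered 1 and, among the rest, higher in ME than in WT, and its part in the result was not tested. Without the libraries numbered 1, the log2 changes were 2.44 for Hoxa5, 0.87 for Hoxa9, 1.36 for Hoxa10 and 5.15 for Hoxa2, all called, and 0.87 for Hoxa7 (adjusted p = 0.0824, edgeR). Leaving out single libraries ended 2 calls: Hoxa2 without P0 WT 2 (adjusted p = 0.0659), P0 WT 3 (0.0747) or P0 ME 1 (0.0813, edgeR), and Hoxa7 without P0 WT 2 (0.1), P0 WT 3 (0.117), P0 ME 1 (0.0973), P0 ME 2 (0.0793) or P0 ME 4 (0.132, edgeR). With limma voom, Hoxa2 (adjusted p = 0.366) and Hoxa7 (0.179) were not called, and Hoxa7 was not called without the filter on low counts (0.0673, edgeR).

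At P28 the comparison of P28 E10.5 ME with P28 WT showed 3 of 8 genes higher, Hoxa5, Hoxa9 and Hoxa10, where 12.3% of all tested genes were called and 7.82% were higher. The median log2 change of the Hoxa genes was 0.74, and that of all genes was -0.10. Hoxa5 was at 11.5, 10.8, 4.63 and 9.26 CPM in P28 WT and at 24.6, 20.9, 26.2 and 24.3 CPM in P28 E10.5 ME. Its log2 change was 1.41 (SE 0.32, adjusted p = 0.00642, edgeR), and no alternative fit or left-out library ended this call. Every ME library carried more Hoxa5 than every WT library.

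Hoxa9 was at 124, 118, 115 and 134 CPM in P28 WT and at 184, 166, 168 and 195 CPM in P28 E10.5 ME, without overlap. The log2 change was 0.53 (SE 0.17, adjusted p = 0.041, edgeR). Hoxa10 was at 71.3, 82.8, 68.2 and 83.5 CPM in P28 WT and at 141, 138, 122 and 121 CPM in ME, a log2 change of 0.77 (SE 0.21, adjusted p = 0.02, edgeR). Together with Hoxa5 and Hoxa6, 4 genes were separated between these groups, as were 28.2% of all tested genes. Hoxa6 was at 3.30 to 3.77 CPM in ME and 0.755 to 2.62 CPM in WT, with a log2 difference of 1.34 (SE 0.48, adjusted p = 0.0659, edgeR), and was called by DESeq2 (0.0209) and limma voom (0.0048). Hoxa7 overlapped, at 33.6 to 51.7 CPM in WT and 48.9 to 61.2 CPM in ME (log2 difference 0.34, SE 0.21, adjusted p = 0.314, edgeR).

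Both smaller calls depended on scaling and on single libraries. With plain library totals the log2 change was 0.41 for Hoxa9 (adjusted p = 0.166, edgeR) and 0.64 for Hoxa10 (0.0596). Hoxa9 was not called with RLE factors (0.0826), DESeq2 (0.0506), no filter (0.115) or a stricter filter (0.0606). It was called without P28 WT 4 and missed the threshold without any other single library of these groups: P28 WT 1 (0.119), P28 WT 2 (0.15), P28 WT 3 (0.098) and P28 E10.5 ME 1 to 4 (0.0789, 0.0661, 0.0702 and 0.0989, edgeR). Hoxa10 missed it without P28 WT 1 (0.0882), P28 WT 2 (0.0698), P28 WT 3 (0.0597) or P28 E10.5 ME 2 (0.0543, edgeR).

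For mice induced at birth, the question was whether the Hoxa genes stood above wild type at P28. Compared with P28 WT, P28 P0 ME had 0 of 8 Hoxa genes called by edgeR, where 1.57% of all tested genes were called. Those 362 genes fell to between 7 and 10 without any single library of these groups but P28 WT 4, without which 649 were called. At an unadjusted p under 0.05 there were 3, Hoxa7, Hoxa9 and Hoxa10. DESeq2 called 0, with 8.12% of all genes called, and limma voom called those 3, at adjusted p of 0.00767, 0.00284 and 0.00551, with 21.7% of all genes called. The libraries of the groups did not overlap for Hoxa5, Hoxa7, Hoxa9 and Hoxa10, a separation seen for 24.8% of all tested genes. Hoxa9 was at 177, 180, 167 and 160 CPM in P28 P0 ME, all above the P28 WT maximum of 134, with a log2 difference of 0.47 (SE 0.17, adjusted p = 0.12, edgeR). Hoxa10 was at 121, 125, 106 and 99.5 CPM (log2 difference 0.56, SE 0.21, adjusted p = 0.137, edgeR). Hoxa7 was at 60.8, 59.5, 53.5 and 61.4 CPM (log2 difference 0.49, SE 0.21, adjusted p = 0.187, edgeR). Hoxa5 lay between 11.6 and 13.2 CPM, just above the highest WT library at 11.5 (log2 difference 0.45, SE 0.31, adjusted p = 0.44, edgeR). The P28 comparisons share the P28 WT libraries, so their differences from WT are not independent.

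Set directly against each other, the 2 induction times at P28 differed by 0 called Hoxa genes, with 0.0477% of all tested genes called by edgeR. Hoxa9 and Hoxa10 overlapped between the groups, with means of 171 ± 9.16 and 113 ± 12.0 CPM after induction at birth and 178 ± 14.0 and 130 ± 10.7 CPM after embryonic induction (SD, n = 4). Hoxa5 did not overlap, at 11.6 to 13.2 against 20.9 to 26.2 CPM. Its log2 difference was -0.96 (SE 0.31), with an unadjusted p of 0.00502 and an adjusted p of 0.784 in edgeR, the only Hoxa gene with an unadjusted p under 0.05 here. Hoxa2 and Hoxa6 were also lower without overlap, at log2 differences of -1.26 (SE 0.82) and -0.70 (SE 0.47), and 11.8% of all tested genes were separated in either direction. DESeq2 called 0 of the 8 and 0.399% of all genes. Limma voom called 2, Hoxa2 (adjusted p = 0.0211) and Hoxa5 (adjusted p = 4.18e-05), and 10.1% of all genes. The edgeR fit of these 2 groups alone called Hoxa2 and Hoxa5, at adjusted p of 0.0342 and 0.000837, and 6.35% of all genes.

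**Figure D2:**
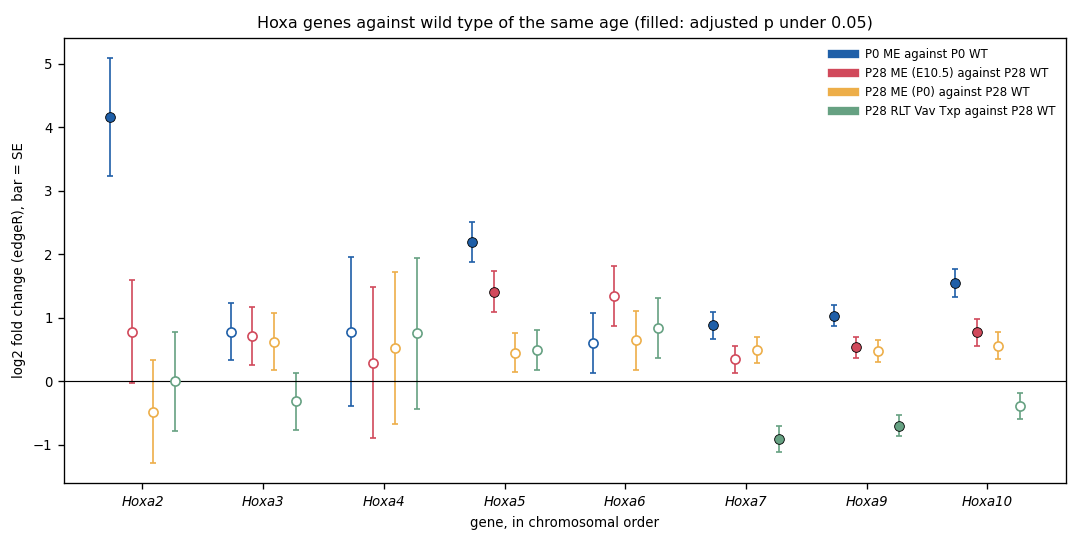
The edgeR log2 fold change (vertical axis) of each Hoxa gene, in chromosomal order (horizontal axis), in 4 groups against wild type of the same age. Bars are SEs and filled points have an adjusted p under 0.05. P0 ME has filled points at Hoxa2, Hoxa5, Hoxa7, Hoxa9 and Hoxa10, and P28 RLT Vav Txp has filled points below 0 at Hoxa7 and Hoxa9.

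The P28 RLT Vav Txp group differed from P28 WT in the opposite direction for part of the cluster. Hoxa7 and Hoxa9 were lower, 2 of 8 genes tested, where 4.12% of all tested genes were called and 1.48% were lower. Hoxa7 was at 27.3, 26.0, 22.6 and 13.3 CPM, all below the P28 WT minimum of 33.6, with a log2 change of -0.91 (SE 0.21, adjusted p = 0.0111, edgeR). Hoxa9 was at 87.4, 81.6, 74.4 and 59.6 CPM, below the P28 WT minimum of 115, with a log2 change of -0.70 (SE 0.17, adjusted p = 0.016, edgeR). Hoxa10, at 50.5, 57.5, 61.0 and 65.1 CPM, also lay wholly below P28 WT but was not called (log2 difference -0.39, SE 0.21, adjusted p = 0.429, edgeR), and 11.5% of all tested genes were separated. Hoxa5, at 11.3 to 13.4 CPM, overlapped P28 WT. The macrophage and neutrophil-lineage sums were higher in these 4 libraries than in the 4 of P28 WT, as given above, and their part in the result was not tested. With the RLT Vav Txp libraries numbered in accession order, the Hoxa9 call ended without P28 WT 4 (adjusted p = 0.0574), RLT Vav Txp 3 (0.0503) or RLT Vav Txp 4 (0.0625), and the Hoxa7 call without P28 WT 3 (0.0578, edgeR).

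Between the P28 groups induced at E10.5, 4 genes were lower in RLT Vav Txp than in P28 E10.5 ME, where 17.9% of all tested genes were called and 9.38% were lower. Hoxa9 was lower by a log2 change of -1.23 (SE 0.17, adjusted p = 4.28e-05, edgeR), from a mean of 178 ± 14.0 to 75.7 ± 12.0 CPM (SD, n = 4). Hoxa7 was lower by -1.25 (SE 0.21, adjusted p = 0.00038, edgeR) and Hoxa10 by -1.16 (SE 0.22, adjusted p = 0.000867, edgeR). Hoxa5 was lower by -0.91 (SE 0.31, adjusted p = 0.0422, edgeR). Unlike the other 3, the Hoxa5 call was lost without any 1 of the 8 libraries, at adjusted p of 0.0628 to 0.103, and with RLE factors (0.0589), plain totals (0.0706), no filter (0.0749) and the stricter filter (0.0547, edgeR). In the order of group means at P28, Hoxa9 ran from RLT Vav Txp through WT (123 ± 8.52 CPM) to the 2 other ME groups, and those 2 did not differ beyond their spread. Hoxa7 ran in the same way from 22.3 ± 6.30 through 41.8 ± 7.59 to 52.9 ± 5.58 and 58.8 ± 3.61 CPM (SD, n = 4), with the last 2 overlapping.

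Between the ages, P28 WT marrow had more Hoxa2 and Hoxa9 than P0 WT liver, 2 of 8 genes, where 7.68% of all tested genes were called and 3.12% were higher. Hoxa9 rose from 60.2 to 90.3 CPM at P0 to 115 to 134 CPM at P28, without overlap, with a log2 change of 0.68 (SE 0.17, adjusted p = 0.0144, edgeR). Hoxa2 rose from a mean of 0.151 ± 0.211 to 1.39 ± 0.896 CPM (SD, n = 4), a log2 change of 3.22 (SE 0.89, adjusted p = 0.0253, edgeR). Hoxa10 had a log2 difference of 0.60 (SE 0.21, adjusted p = 0.0866, edgeR) and was called by DESeq2 (0.048), without the P0 libraries numbered 1 (0.0318) and with plain library totals (0.78, adjusted p = 0.0269, edgeR). The Hoxa2 call ended without P0 WT 2 (0.0744), P0 WT 3 (0.0602) or P28 WT 3 (0.0864, edgeR) and with limma voom (0.121). With only the 2 WT groups in the fit, neither Hoxa2 (0.354) nor Hoxa9 (adjusted p = 0.0777, edgeR) was called, and 2.5% of all genes were. The erythroid sum over 8 genes was 311 to 398 CPM in P28 WT and 470 to 8880 CPM in P0 WT, and its part in the result was not tested.

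In ME cells induced at E10.5, P28 marrow differed from P0 liver by 0 called Hoxa genes in edgeR, although 18.2% of all tested genes were called. None of the 8 had an unadjusted p under 0.05, and DESeq2 and limma voom also called 0, with 23.9% and 25.6% of all genes called. Mean Hoxa9 was 158 ± 50.7 CPM at P0 and 178 ± 14.0 CPM at P28, and mean Hoxa5 was 30.5 ± 7.80 and 24.0 ± 2.20 CPM (SD, n = 4). Without P0 ME 1, the library with 233 CPM, the Hoxa9 log2 difference was 0.43 and was called (adjusted p = 0.0445, edgeR). Without both P0 libraries numbered 1 it was also 0.43 (adjusted p = 0.0345, edgeR).

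The difference between the ME effect at P28 and at P0 was tested as an interaction, and 0 of 8 Hoxa genes were called by edgeR, where 0.72% of all tested genes were called. Those 166 genes became 11 without P28 E10.5 ME 1 and 1653 without P0 WT 4. The estimates were negative for Hoxa2 (-3.37, SE 1.18, adjusted p = 0.15), Hoxa10 (-0.77, SE 0.30, adjusted p = 0.198) and Hoxa9 (-0.50, SE 0.24, adjusted p = 0.299, edgeR), the 3 with an unadjusted p under 0.05. DESeq2 called 1 of the 8, Hoxa2 (-3.49, adjusted p = 0.0323), and 3.39% of all genes, while limma voom called 0 of the 8 and 2.79% of all genes. Without P0 WT 1 the Hoxa2 estimate was -4.92 (adjusted p = 0.0323), and without P0 WT 4 that of Hoxa10 was -0.95 (adjusted p = 0.04, edgeR). Hoxa6 had a positive estimate of 0.73 (SE 0.66, adjusted p = 0.624, edgeR). With edgeR on all 24 libraries, Hoxa3, Hoxa4 and Hoxa6 were called in 0 of the 9 comparisons. DESeq2 and limma voom called Hoxa6 in P28 E10.5 ME against P28 WT, as given above, and limma voom called Hoxa3 in RLT Vav Txp against P28 E10.5 ME (-1.04, adjusted p = 0.0322).

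Ratios of counts within a library do not depend on library scaling, and they differed between the genes of the cluster. The ratio of Hoxa5 to Hoxa9 counts was 0.0869 on average in P0 WT (range 0.0311 to 0.127) while P0 ME had 0.197 (0.169 to 0.243). At P28 it was 0.0732 in WT (0.0402 to 0.0924) and 0.135 in E10.5 ME (0.124 to 0.156). It was 0.0725 in P28 P0 ME (0.0657 to 0.0771), a range inside that of P28 WT, and 0.172 in RLT Vav Txp (0.129 to 0.217). The 3 groups induced at E10.5 thus had ratios above the wild type of their age in every library, whereas the group induced at birth did not. In P0 ME and P28 E10.5 ME, Hoxa5 and Hoxa9 were both called higher, Hoxa5 by the larger log2 changes of 2.19 and 1.41 (edgeR). In RLT Vav Txp, Hoxa9 was called lower (-0.70) and Hoxa5 was not called (log2 difference 0.49, SE 0.31, adjusted p = 0.513, edgeR).

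On the log2 scale the Hoxa5 to Hoxa9 ratio differed from wild type by 1.34 in P0 ME (SE 0.46). At P28 it differed by 0.95 in P28 E10.5 ME (SE 0.29), by 1.28 in RLT Vav Txp (SE 0.32) and by 0.06 in P28 P0 ME (SE 0.29). P28 P0 ME and P28 E10.5 ME differed by -0.89 (SE 0.09) and did not overlap. Each comparison without overlap had a two-sided exact permutation p of 0.0286, the smallest that 4 against 4 can give. The ratios were examined after the data had been seen, and over the 24 tests of 3 ratios in 8 comparisons the adjusted p was 0.0857 for these, so none passed the correction. The ratio of Hoxa7 to Hoxa9 was lower at P28 than at P0, by -0.55 in WT (SE 0.17) and by -0.62 in E10.5 ME (SE 0.19, exact permutation p = 0.0286 for both, adjusted p = 0.0857). The ratio of Hoxa10 to Hoxa9 was 0.640 in P0 WT, against 0.928 in P0 ME, with overlapping ranges (exact permutation p = 0.0571, adjusted p = 0.152).

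**Figure D3:**
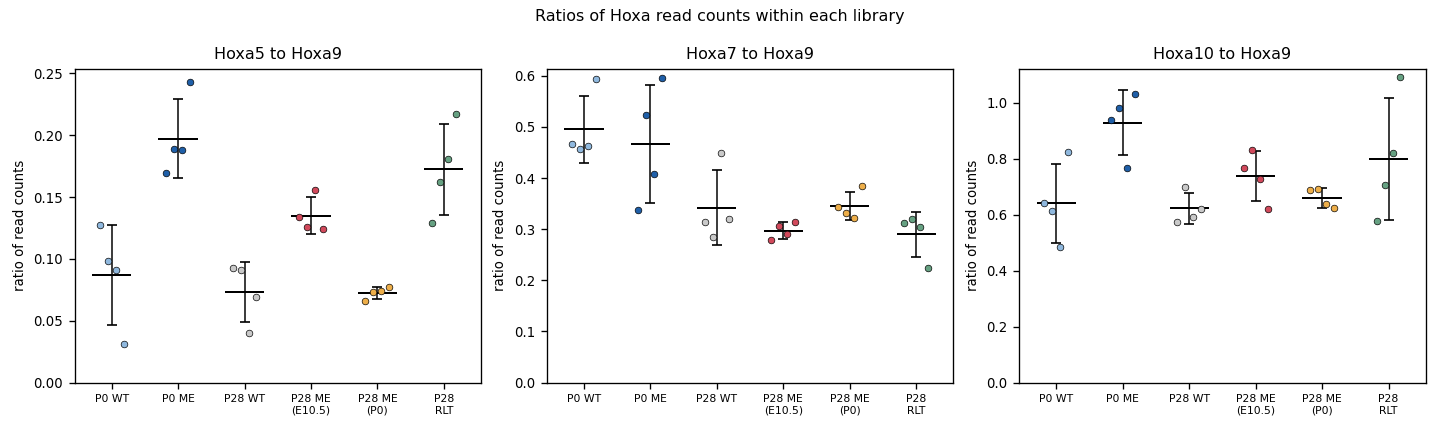
Ratios of Hoxa5, Hoxa7 and Hoxa10 counts to Hoxa9 counts (vertical axes, linear, from 0) in the 6 groups (horizontal axis). Points are libraries, 4 per group, lines are means and bars are SDs. The Hoxa5 ratio lies at 0.124 or above in every library induced at E10.5 and at 0.0771 or below in every library induced at birth. Wild-type libraries lie at 0.0311 to 0.127 at P0 and at 0.0402 to 0.0924 at P28.

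Genes beside the cluster and RNAs within it gave few calls. Of 8 flanking genes tested, 1 was higher in P28 E10.5 ME and in P28 RLT Vav Txp than in P28 WT, Tax1bp1, an autophagy adaptor, at log2 changes of 0.49 (SE 0.13, adjusted p = 0.0198, edgeR) and 0.53 (SE 0.13, adjusted p = 0.0195, edgeR). In these comparisons 12.3% and 4.12% of all tested genes were called, so the first count is near the background. With plain library totals neither call held (adjusted p = 0.136 and 0.131, edgeR). The first call was lost without P28 WT 1 or 2 or P28 E10.5 ME 3 or 4 (adjusted p of 0.0519 to 0.123, edgeR) and the second without P28 WT 1, 2 or 4 or RLT Vav Txp 2 (0.0518 to 0.0775). Of 3 noncoding RNAs of the locus that were tested, 0 were called by edgeR in any comparison, with at most 1 at an unadjusted p under 0.05 and at most 1 called by DESeq2 or by limma voom. Mir196b, which shares 85 bases with Hoxa9 exons on the same strand, had 0 counts in every library. How reads in shared bases were counted is not given, so this 0 does not show that it was absent. The paralogous Hoxb cluster had 8 genes tested and 0 called by edgeR in P0 ME or in any P28 group against P28 WT, with 0 to 1 per comparison at an unadjusted p under 0.05, 0 by DESeq2 and at most 1 by limma voom. Hoxb5 and Hoxb6 were higher in RLT Vav Txp than in P28 E10.5 ME, calls that were lost in 8 and 7 of 8 fits without 1 library each.

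The cofactors that bind DNA with Hoxa proteins were mostly not called. In P0 ME and P28 P0 ME, 0 of 9 passed in edgeR (2 and 0 at an unadjusted p under 0.05, 0 by DESeq2, 0 and 1 by limma voom). In these comparisons 0.642% and 1.57% of all tested genes were called by edgeR. Meis1, the partner of Hoxa9, averaged 185 ± 61.6 CPM in wild type and 270 ± 84.8 CPM with ME at P0 (SD, n = 4). At P28 it averaged 329 ± 21.8 CPM in wild type, 328 ± 22.0 in P28 E10.5 ME, 379 ± 22.6 in P28 P0 ME and 307 ± 32.6 in RLT Vav Txp (SD, n = 4). With edgeR on all 24 libraries, Meis1 was not called against wild type of the same age in any of these groups. Without the P0 libraries numbered 1, 1 of the 9 cofactors was higher in P0 ME, where 0.998% of all tested genes were called (edgeR). The same count was reached without P0 WT 1 alone, where 2.38% of all tested genes were called. In P28 E10.5 ME, 2 of 9 were called against P28 WT, where 12.3% of all tested genes were called. Pknox1, another homeodomain cofactor, was 1 of these, higher than in P28 WT by a log2 change of 1.15 (SE 0.34, adjusted p = 0.0258, edgeR). The Pknox1 call was lost without P28 WT 1 or 2 or P28 E10.5 ME 1, 2 or 3 (adjusted p of 0.0565 to 0.133, edgeR). In RLT Vav Txp, 1 of 9 was higher than in P28 WT, Pbx3, where 4.12% of all tested genes were called. The Pbx3 call was lost without P28 WT 2 or RLT Vav Txp 1 or 2 (adjusted p of 0.0512 to 0.0556, edgeR).

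Regulators of the cluster include activators of its transcription and the Polycomb proteins that silence it. Against wild type of the same age, 8 of 13 were higher and 0 lower in P28 E10.5 ME, where 7.82% of all tested genes were higher. The 8 became 3 with plain library totals, without the filter, without P28 WT 1 or without P28 WT 2, and 4 to 6 without any other single library. With RLE factors, plain totals, the stricter filter, these 2 groups alone or the 20 numbered libraries, 1 was lower. With DESeq2 or limma voom, 2 were lower. Calls that held in every fit included those of Aff1, an elongation factor subunit (0.92, SE 0.21, adjusted p = 0.0073), and Suz12, a subunit of the repressive Polycomb complex (0.76, SE 0.18, adjusted p = 0.00891, edgeR). In P0 ME, where 0.364% of all genes were higher, 1 of 13 was higher, Kmt2a, from 27.3 ± 8.64 to 91.5 ± 10.9 CPM (SD, n = 4), a log2 change of 1.74 (SE 0.18, adjusted p = 4.16e-06, edgeR). Without the other groups in the fit this Kmt2a call had an adjusted p of 0.0796 (edgeR). The human transgene has an MLL part and no row of its own, and whether its reads were counted as Kmt2a was not tested. In P28 P0 ME, where 1.57% of all genes were called, Kmt2a (1.23, SE 0.17, adjusted p = 0.000873, edgeR) and Aff1 were higher. Aff1 was called there without P28 WT 4 and missed the threshold without any other single library (adjusted p of 0.102 to 0.153, edgeR). In P28 RLT Vav Txp 0 of 13 were called (2 at an unadjusted p under 0.05, 0 by DESeq2 and limma voom).

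The 14 genes listed as targets of Hoxa9 and Meis1 were not called in P0 ME or P28 P0 ME by edgeR, with 6 of 14 at an unadjusted p under 0.05 in each, 2 and 1 called by DESeq2 and 0 and 7 by limma voom. In P28 E10.5 ME, 3 of 14 were higher than in P28 WT and 0 lower, where 7.82% of all tested genes were higher, Etv6, Syk and Foxp1, each of which lost its call with plain library totals. Without P28 WT 1 or 2 or P28 E10.5 ME 3 the calls of Etv6 (adjusted p of 0.0527 to 0.0696) and Syk (0.0632 to 0.107, edgeR) were lost, and that of Foxp1 was lost without any single library but P28 E10.5 ME 4 (0.0571 to 0.179). In P28 RLT Vav Txp, 4 of 14 were lower than in P28 WT and 1 was higher. Without any 1 library, 3 or 4 were lower. The macrophage and neutrophil-lineage sums were also higher in these libraries, as given above, and their part in the result was not tested. Flt3, a cytokine receptor of early progenitors, fell from 1175 ± 59.3 to 222 ± 139 CPM (SD, n = 4), a log2 change of -2.40 (SE 0.33, adjusted p = 7.23e-05, edgeR). Cd34 (-1.25) and Sox4 were also lower and Id2, an inhibitor of helix-loop-helix factors, was higher (1.67), and their calls held without any 1 library. The share of all tested genes called in that comparison was the 4.12% given above.

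**Figure D4:**
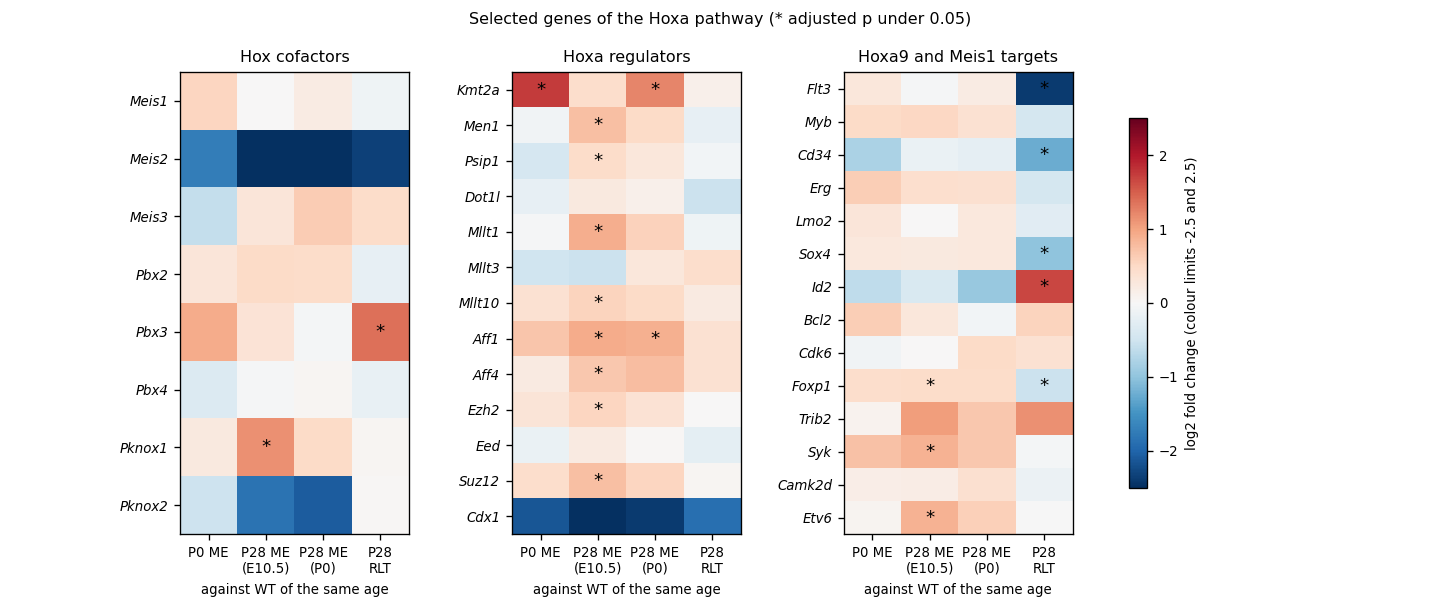
Colours give the edgeR log2 fold change (scale limited to -2.5 and 2.5) of Hox cofactors, Hoxa regulators and Hoxa9 and Meis1 targets (rows) in 4 groups against wild type of the same age (columns), and asterisks mark an adjusted p under 0.05. Asterisks fall on 8 of 13 regulators in P28 E10.5 ME and on 5 of 14 targets in P28 RLT Vav Txp.

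Hoxa9 was used as the reference to ask which genes had the most similar course over the 6 group means. Likeness was the root mean square difference of centred log2 CPM, and 7342 genes passed the conditions on level and range. The 5 nearest genes outside the cluster were Phf2 (0.141), L3mbtl3 (0.144), Pecam1 (0.144), Atp9a (0.153) and Man1a (0.153). Among all tested genes, Hoxa3 ranked at 54 (0.198) and Hoxa10 at 58 (0.200), followed by Hoxa7 at 498 (0.293). Hoxa6 ranked at 7445, Hoxa5 at 8822, Hoxa4 at 9008 and Hoxa2 at 19511. Hoxa4 and Hoxa2 had low counts, and whether the members differed in course was not tested. These ranks describe 6 points from the same 24 libraries.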

How the data were processed

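RNA-seq libraries of sorted mouse LSK cells, 24 in 6 groups of 4, were represented by raw read counts per Ensembl gene, which the authors deposited as 1 table. Per the submitters' processing notes, STAR 2.7.9a, Subread and featureCounts 2.0.3 were used with GRCm38, with no role or order given. Strand setting, annotation release and the handling of reads with several matches are not given in the sources used here. The table had 55774 rows for 55487 gene IDs, and 287 identical repeats of 168 IDs were dropped. Columns were matched to samples by library number.

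Counts were filtered with edgeR filterByExpr (minimum count 10), which left 23059 genes, scaled by TMM and fitted with the robust quasi-likelihood model of edgeR 4.0.16 over all 24 libraries with 1 mean per group (18 residual degrees of freedom). P-values were adjusted by Benjamini-Hochberg over all genes tested, separately in 9 comparisons, and a gene was called under 0.05. SEs were derived from the fold change and the F statistic. A count of 3 was taken as the floor, and in the smallest library 1 CPM stood for 31.2 reads. Totals of 31233688 to 89774511 counts set the precision, which covers counting error only, since PCR copies are not independent molecules. A fold change of a Hoxa gene is printed only where it exceeded its SE, which 48 of 72 did, and not each of these is printed. For Hoxa9 likeness, genes needed an average log2 CPM of 3 or more and a range of at least 0.5 times that of Hoxa9.

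Some genes of the lists are not reported here. Members, gene lists and tests were chosen with earlier results of these data known. All 9 members are named in every comparison where they bear on it, and of each other list at most 4 called genes per comparison, taken from the largest changes. Alternatives were RLE factors, plain library totals, DESeq2 1.42.0, limma 3.58.1 (voom with quality weights), no filter, at least 10 counts in at least 12 libraries, only the groups compared, a replicate block on the 20 numbered libraries, and leaving out each library. Leaving out or adding a term for the P0 libraries numbered 1, and the ratios to Hoxa9, were chosen after seeing the data. The procedure was tested on simulated data. Promoters came from RefSeq and coordinates from GENCODE M21. R 4.3.3, Python 3.11.15, scipy 1.17.1 and matplotlib 3.10.9 were used.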

Additional observations from a re-analysis of the deposited data

Results flagged for a closer look

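The ME effect on 2 regulators of the Hoxa genes differed between the ages by the interaction test. For Kmt2a the log2 effect of ME at P28 minus that at P0 was -1.31 (SE 0.24, adjusted p = 0.017, edgeR), with means of 27.3 and 91.5 CPM in P0 WT and P0 ME and of 41.6 and 56.4 CPM in P28 WT and P28 E10.5 ME. Without P28 E10.5 ME 1 or 2 the adjusted p was 0.0671 and 0.0565, and with only these 4 groups in the fit it was 0.0591 (edgeR). Whether reads of the human transgene were counted as Kmt2a was not tested. For Psip1, a chromatin tether of MLL, the difference was 0.88 (SE 0.20, adjusted p = 0.0407, edgeR), a call that was lost in 13 of 16 fits without 1 library and in 4 of 11 other settings. By Dixon's test of the gap over the range at its usual threshold, 0 of 54 sets of 4 Hoxa gene values held a library that stood apart. Hoxa9 in P0 ME came close, with 233 CPM in library 1 against 125, 129 and 144 CPM.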

How the results depend on the processing

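The count of Hoxa genes called moved in several fits. With limma voom it was 3 of 8 in place of 5 for P0 ME against P0 WT, 3 in place of 0 for P28 P0 ME against P28 WT, 2 in place of 0 for P28 P0 ME against P28 E10.5 ME and 1 in place of 2 for P28 WT against P0 WT. With only the groups compared in the fit, these 4 counts were 0, 3, 2 and 0. Plain library totals gave 1 in place of 3 for P28 E10.5 ME against P28 WT. The P0 libraries numbered 2 to 4 gave 1 in place of 0 for E10.5 ME between the ages, and DESeq2 gave 1 in place of 0 for the interaction. Leaving out 1 library at a time gave 3 to 5 for P0 ME, 1 to 3 for P28 E10.5 ME, 0 to 0 for P28 P0 ME and 1 to 2 for RLT Vav Txp against wild type, 3 to 3 for RLT Vav Txp against P28 E10.5 ME (4 with all libraries), 1 to 3 for WT between the ages, 0 to 1 for E10.5 ME between the ages and 0 to 1 for the interaction. The cause was not tested. Over all genes, the number called for P0 ME against P0 WT was 148, and 802 with DESeq2, 16 with limma voom and 5 with the P0 groups alone. For P28 P0 ME against P28 WT it was 362, and 1872, 4998 and 5196. For P28 P0 ME against P28 E10.5 ME it was 11, and 92, 2326 and 1147, and for the interaction 166, and 782, 644 and 41. For P28 E10.5 ME against P28 WT it was 2827, and 6492 with limma voom, for RLT Vav Txp against P28 E10.5 ME 4122, and 8053 with limma voom, for RLT Vav Txp against P28 WT 950, and 1644 with DESeq2, and for WT between the ages 1771, and 2759 with DESeq2 and 481 with the WT groups alone. Without 1 library, the numbers over all genes ran from 104 to 575 for P0 ME, 893 to 2723 for P28 E10.5 ME, 7 to 649 for P28 P0 ME and 635 to 859 for RLT Vav Txp against wild type. They ran from 4 to 15 for P28 P0 ME and 2061 to 5212 for RLT Vav Txp against P28 E10.5 ME, 1137 to 2473 for WT and 2687 to 4735 for E10.5 ME between the ages, and 11 to 1653 for the interaction. No printed fold change of a Hoxa gene changed sign under any setting.

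A replicate block on the 20 numbered libraries gave 5 Hoxa genes for P0 ME against wild type, where 0.778% of all tested genes were called. For P28 E10.5 ME against wild type it gave 3 (14.0% of all genes). For P28 P0 ME it gave 0 against wild type (4.25% of all genes) and 0 against P28 E10.5 ME (0.063%). Between the ages it gave 3 for WT (7.59%), with 2 without the block (8.06%). It gave 0 for E10.5 ME between the ages (19.7%) and 0 for the interaction (1.49%). Samples share only a number: deviations of same-numbered libraries correlated at 0.66, 0.0531, 0.371 and 0.464 between the P0 groups, over 10249 genes, and 6 of those 8 libraries correlated best with their own number. The RLT Vav Txp libraries carry no such number and were not blocked. Depth left Hoxa11 (0 to 10 counts) under the filter and untested, and Hoxa4 had 1 to 85 counts per library.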
